A study of Homo sapiens with 10 samples.

Results

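Acetylation of histone H3 on lysine 27 (H3K27ac), a chromatin mark of promoters and enhancers in use, was examined over the skeletal myosin heavy chain cluster on human chromosome 17. Its members were taken by position alone: every counted peak window on chromosome 17 of hg19 whose start lay in the 390 kb set for the cluster of MYH13, MYH8, MYH4, MYH1, MYH2 and MYH3. That gave 7 peaks of 42067 in the table, each 400 bases between start and end. All 7 passed the filter on low counts, which kept 41791 peaks. The 8 libraries came from chromatin immunoprecipitation and sequencing of Rh30, an established human alveolar rhabdomyosarcoma line. All groups carried PAX3-FOXO1-FKBP, the fusion transcription factor of this tumour joined to a degron that the ligand dTAG47 directs to destruction. Treated cells had 500 nM dTAG47 during 2 h, 4 h or 24 h, control cells had the solvent DMSO, and each group has 2 libraries, A and B. The DMSO samples carry no time in the labels, which do not say whether the cells were 1 clone, nor whether libraries came from separate cultures, so p-values measure a spread that may be technical. No library in the table measured the amount of fusion protein, so its loss could not be checked here.

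Myosin heavy chain is the motor of the thick filament in striated muscle, and vertebrate genomes hold a row of skeletal copies that are switched on in turn as muscle develops. MYH3 encodes the embryonic form and MYH8 the perinatal form. MYH1, MYH2 and MYH4 encode the adult fast forms, and MYH13 encodes a form known from the muscles that move the eye. Rhabdomyosarcoma cells resemble muscle precursors that do not complete differentiation. In the RefSeq gene table, which is on GRCh38 and was used only for names and neighbours, the 6 genes stand in the order MYH13, MYH8, MYH4, MYH1, MYH2 and MYH3. No other protein-coding gene lies among them, while the long noncoding RNA gene MYHAS does. GAS7 and SCO1 are the protein-coding neighbours on either side. The count table names no genes and no hg19 annotation was used, so no peak was assigned to a single gene. The end of the range with lower coordinates is called the MYH13 end and the other the MYH3 end.

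Promoter sequences of 5 of the 6 genes were at hand from RefSeq on GRCh38.p14, each 300 bases long from 250 bases before to 50 bases after the gene start; MYH3 had none. All 5 lie on the minus strand, so these genes are read in one direction. The promoters of MYH8, MYH4, MYH1 and MYH2 are shown because they share a run of 15 bases, in capitals below. The run was picked from these promoters, as the longest one shared by the most of them. No other promoter among 35116 in the table held it on either strand. Since the run was picked this way, its absence elsewhere is a description and not a test. The promoter positions below are on GRCh38.p14, which is not the genome build of the peak positions. They were not converted, so no distance between a promoter and a peak can be read from them.
MYH8, chr17:10421901-10422200, minus strand: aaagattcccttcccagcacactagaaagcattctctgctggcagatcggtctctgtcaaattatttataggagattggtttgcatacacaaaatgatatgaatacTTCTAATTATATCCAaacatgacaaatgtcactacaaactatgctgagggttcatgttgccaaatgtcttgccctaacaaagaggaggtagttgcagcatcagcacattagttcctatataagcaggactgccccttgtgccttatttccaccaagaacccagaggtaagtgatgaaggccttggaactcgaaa
MYH4, chr17:10469510-10469809, minus strand: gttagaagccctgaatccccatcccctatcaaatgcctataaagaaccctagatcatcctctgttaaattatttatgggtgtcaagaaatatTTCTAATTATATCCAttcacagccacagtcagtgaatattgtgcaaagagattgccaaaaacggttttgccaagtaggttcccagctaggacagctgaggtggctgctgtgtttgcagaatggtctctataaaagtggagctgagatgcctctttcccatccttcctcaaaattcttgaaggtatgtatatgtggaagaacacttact
MYH1, chr17:10518493-10518792, minus strand: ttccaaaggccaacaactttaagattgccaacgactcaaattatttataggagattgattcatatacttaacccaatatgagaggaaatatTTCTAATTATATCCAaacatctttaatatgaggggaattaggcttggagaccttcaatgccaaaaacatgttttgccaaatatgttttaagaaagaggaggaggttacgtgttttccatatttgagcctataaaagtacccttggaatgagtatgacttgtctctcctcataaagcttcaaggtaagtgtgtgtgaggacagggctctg
MYH2, chr17:10549609-10549908, minus strand: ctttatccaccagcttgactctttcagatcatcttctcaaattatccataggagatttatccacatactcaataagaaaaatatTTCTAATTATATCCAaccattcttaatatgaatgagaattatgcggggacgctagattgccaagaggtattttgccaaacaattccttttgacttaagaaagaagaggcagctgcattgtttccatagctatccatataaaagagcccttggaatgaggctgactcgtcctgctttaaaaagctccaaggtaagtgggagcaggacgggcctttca

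The shared run began 144 bases before the gene start in MYH8, 158 in MYH4, 159 in MYH1 and 166 in MYH2, and the promoter of MYH13 did not hold it. Its letters are rich in A and T, as are these promoters. Their G and C content was 41.3%, 41.0%, 36.3% and 39.0% for MYH8, MYH4, MYH1 and MYH2, and 47.7% for MYH13, against a median of 58.7% over all promoters in the table. In a global alignment the most alike pair was MYH1 and MYH2, identical in 67.2% of aligned columns. The pairs among MYH8, MYH4, MYH1 and MYH2 otherwise ranged from 53.1% to 54.6%, and pairs with MYH13 from 44.6% to 48.1%. No pair shared an exact run longer than 22 bases. TATAAA, searched on both strands, was present in all 5 promoters, against 11.5% of all promoters. CAGCTG, an E-box that muscle factors such as MYOD1 can bind and that reads the same on both strands, was present in those of MYH13, MYH4 and MYH2, against 17.9% of all promoters. Such matches describe the letters only. The coding exons of these genes are known to be much alike, and it is not stated how reads that align to several copies were counted.

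The cluster's peaks stood in 2 separate sets and were weak. The 3 peaks at the MYH13 end began at 10258732, 10287239 and 10288150, and the 4 at the MYH3 end began at 10517496, 10527929, 10561592 and 10578236. Between these groups lay 228946 bases without a peak, and 5.61% of all gaps between neighbouring peaks of the table were wider. Below the first peak no window was counted for 779547 bases, a gap exceeded by 1.2% of all gaps. The pair at 10287239 and 10288150 was the closest, 511 bases apart. A window is counted only where the authors' peak set has one, so the long gaps say that no peak was placed there, not that H3K27ac was at 0. Over 7945 windows of 390 kb laid along the chromosomes, the median held 3 peaks, and 74.8% held 7 or fewer. Equal windows on each side held 0 peaks below the cluster and 2 above it.

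**Figure D1:**
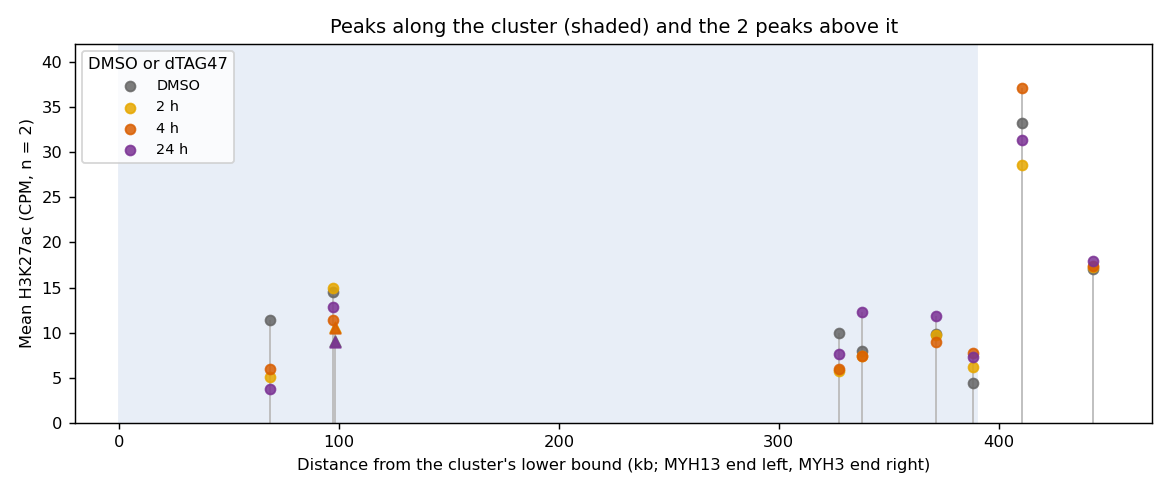
Mean H3K27ac in CPM (vertical axis, n = 2 libraries) at each peak against its distance in kb from the cluster's lower bound (horizontal axis), with one point per group (triangles mark the third peak, 511 bases from the second). The shaded range holds the 7 peaks, in a set of 3 and a set of 4 with 229 kb between them, and the 2 peaks right of it are outside the cluster.

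Levels are CPM, counts per 1000000 counts in peaks, scaled by TMM, a method that aligns libraries on the bulk of their peaks. Averaged over the 8 libraries, the 7 peaks ranged from 6.39 to 13.4 CPM, all below the median of 13.7 CPM over all tested peaks. The highest was the peak at 10287239, with 13.4 CPM, and the lowest that at 10578236, with 6.39 CPM. Those at 10561592 and 10288150 followed the highest, with 10.1 and 9.79 CPM. Next came the peaks at 10527929 with 8.77, 10517496 with 7.32 and 10258732 with 6.56 CPM. Neighbours in this order overlapped in their single libraries. Just outside the bounds, the nearest peak below, at 9478785, averaged 12 CPM, and the nearest above, at 10600556, averaged 32.6 CPM. The next one above, at 10633013, averaged 17.4 CPM. Each member held between 15 and 67 reads in a library, so counting error is a large part of each value. The whole libraries held from 3540104 to 5001652 counts in peaks.

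One member fell with dTAG47 at every time. The peak at 10258732 to 10259132, the one nearest the MYH13 end, held 9.68 and 13.1 CPM in DMSO, 6.60 and 3.63 CPM at 2 h, 5.45 and 6.45 CPM at 4 h, and 4.16 and 3.41 CPM at 24 h, in libraries A and B. All 6 treated libraries lay below both DMSO libraries. At 24 h it averaged 3.79 ± 0.53 CPM, against 11.4 ± 2.40 CPM in DMSO (SD, n = 2 each), 0.337 of the DMSO level. The log2 change was -1.57 (SE 0.29, 95% interval -2.13 to -1.01, edgeR adjusted p = 1.5e-05). At 2 h it averaged 5.12 ± 2.10 CPM (log2 change -1.20, SE 0.28, edgeR adjusted p = 0.00674). At 4 h it averaged 5.95 ± 0.71 CPM (log2 change -0.93, SE 0.27, edgeR adjusted p = 0.0407). Of all tested peaks, 42.5% were lower than this one in DMSO, and 3.0% were lower at 24 h. A more negative log2 change was found in 0.199% of tested peaks at 2 h, 1.13% at 4 h and 0.23% at 24 h, over peaks of every level.

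The timing of that loss was not resolved by direct comparison of treated groups. Set against 2 h, the log2 change of the 4 h level was 0.27 (95% interval -0.35 to 0.90), and that of the 24 h level -0.37 (-1.04 to 0.30). For 24 h against 4 h it was -0.65 (-1.29 to 0.00, edgeR adjusted p = 0.373), with both 24 h libraries below both 4 h libraries. The call at 24 h was kept without any single library and under the DESeq2 Wald test (adjusted p = 0.0377). The call at 2 h was lost without DMSO library B (adjusted p = 0.301) or 2 h library B (0.405), and that at 4 h without any one of the 4 libraries compared (0.0537 to 0.467); DESeq2 called neither (adjusted p = 1 for both).

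One of 7 members was thus called at each time against DMSO, where 1.23% of all tested peaks were called at 2 h, 2.23% at 4 h and 8.35% at 24 h. With 7 members, 1 call is a single observation, and no rate for the cluster follows from it. At an unadjusted p under 0.05, 2 members were lower and 0 higher at 2 h, against 11.1% of all tested peaks in either direction. At 4 h, 2 were lower and 1 higher, against 13.1%, and at 24 h 1 was lower and 2 higher, against 21%. Members whose treated libraries did not overlap DMSO numbered 3 at 2 h, 4 at 4 h and 4 at 24 h, where 40%, 42.8% and 50.1% of all tested peaks did the same. The 4 at 24 h include the peak at 10578236, where 24 h library B and DMSO library B both held 4.55 CPM after rounding. The median log2 change of the 7 members, at 2 h, 4 h and 24 h in turn, was -0.01, -0.13 and -0.02, and that of all tested peaks 0.01, 0.00 and 0.00. All comparisons against DMSO share the same 2 DMSO libraries. Neither of the 2 peaks in the windows beside the cluster was called at any time.

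**Figure D2:**
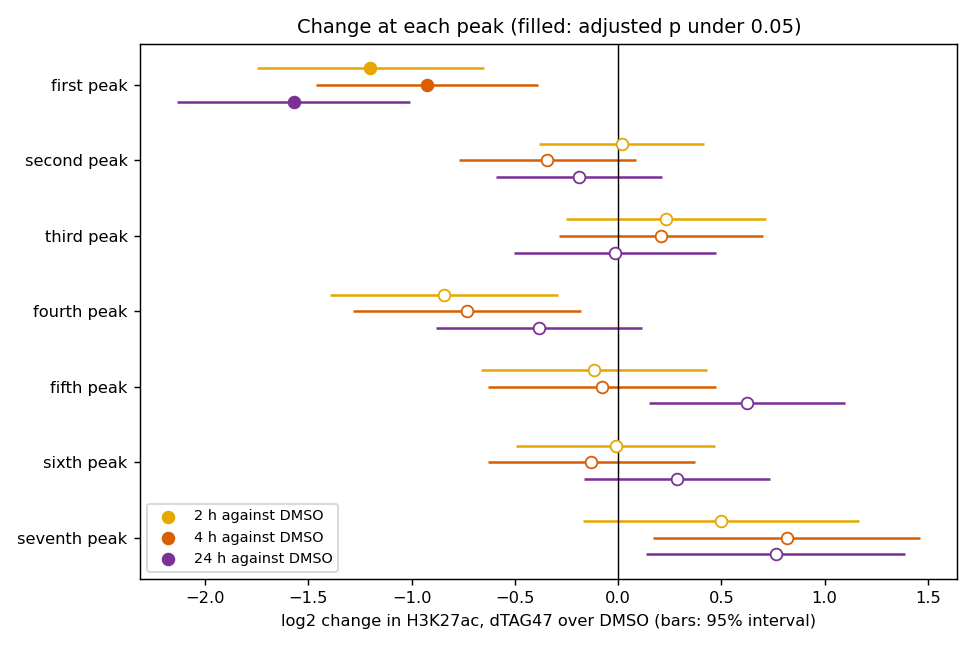
Log2 change in H3K27ac of 2 h, 4 h and 24 h of dTAG47 over DMSO (horizontal axis) for the 7 peaks in order of position, MYH13 end at the top, with 95% intervals. Filled points have an edgeR adjusted p under 0.05. They belong to the peak at 10258732 alone, at -1.20, -0.93 and -1.57.

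The peak at 10527929 to 10528329, at the MYH3 end, moved between early and late treatment. It held 9.39 and 6.53 CPM in DMSO, 7.98 and 6.83 CPM at 2 h, 5.45 and 9.43 CPM at 4 h, and 12.48 and 12.06 CPM at 24 h. Both 24 h libraries lay above the 6 others, which overlapped one another. It rose at 24 h relative to 2 h, with 12.3 ± 0.30 CPM at 24 h and 7.40 ± 0.82 CPM at 2 h (SD, n = 2 each; log2 change 0.74, SE 0.23, 95% interval 0.28 to 1.20, edgeR adjusted p = 0.0463). It was the 1 member of 7 called in that comparison, which called 4.18% of all tested peaks. This call was lost without any one of its 4 libraries (adjusted p from 0.0881 to 0.347), and DESeq2 gave the peak no adjusted p. Against DMSO the log2 change at 24 h was 0.62 (SE 0.24, edgeR adjusted p = 0.092), and from 4 h to 24 h it was 0.70 (SE 0.24, adjusted p = 0.12). It was the 1 member with an unadjusted p under 0.05 from 4 h to 24 h, where 13.5% of all tested peaks had one, and also from 2 h to 24 h, where 17.6% had one.

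Its neighbour at 10517496 to 10517896, 10033 bases away, held 8.54 and 11.4 CPM in DMSO, 7.15 and 4.27 CPM at 2 h, 6.82 and 5.21 CPM at 4 h, and 7.92 and 7.28 CPM at 24 h. All 6 treated libraries lay below both DMSO libraries, by little at 24 h. The log2 change did not pass the test at 2 h (-0.84, SE 0.28, edgeR adjusted p = 0.127), at 4 h (-0.73, SE 0.28, adjusted p = 0.179) or at 24 h (-0.38, SE 0.25, adjusted p = 0.408). When near neighbours were joined (here across 10033 bases, but not across gaps of 16244 or more) and refitted over 26144 regions, these peaks formed one region from 10517496 to 10528329. It averaged 19.9 ± 0.76 CPM at 24 h and 13.1 ± 2.90 CPM at 2 h, and it rose by 0.63 log2 units (SE 0.18, edgeR adjusted p = 0.0181). Of all regions, 5.34% were called in that comparison. That call was lost without 2 h library B or either 24 h library, and DESeq2 did not make it (adjusted p = 0.549). For 24 h against 4 h the log2 change of the region was 0.56 (SE 0.18, edgeR adjusted p = 0.0816), where 1.99% of regions and 1.12% of single peaks were called. Its level in DMSO was 17.9 ± 0.04 CPM, and its log2 change at 24 h against DMSO was 0.16 (SE 0.17, adjusted p = 0.679).

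The peak at 10578236 to 10578636, the last at the MYH3 end, was weakest in DMSO. It held 4.27 and 4.55 CPM in DMSO, 5.23 and 7.04 CPM at 2 h, 5.73 and 9.68 CPM at 4 h, and 10.1 and 4.55 CPM at 24 h. At 2 h and 4 h both treated libraries exceeded both DMSO libraries, while at 24 h library A was far above library B, which lay at the DMSO level. The log2 changes were 0.50 (SE 0.34, edgeR adjusted p = 0.636), 0.82 (SE 0.33, 0.214) and 0.76 (SE 0.32, 0.126) at 2 h, 4 h and 24 h. Without 24 h library B the last became 1.19 (adjusted p = 0.0177), and without 24 h library A it became 0.045 (adjusted p = 0.976). The 24 h change at this peak thus rested on library A.

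The remaining 3 members did not pass the test in any comparison. The peak at 10561592 to 10561992 held 11.7 and 7.95 CPM in DMSO, 9.63 and 9.81 CPM at 2 h, 8.73 and 9.18 CPM at 4 h, and 13.3 and 10.5 CPM at 24 h. Its libraries overlapped DMSO at every time, and the log2 change at 24 h was 0.28 (95% interval -0.16 to 0.73). The strongest member, at 10287239 to 10287639, held 13.4 and 15.6 CPM in DMSO, 17.3 and 12.6 CPM at 2 h, 10.6 and 12.2 CPM at 4 h, and 11.5 and 14.1 CPM at 24 h. Its 4 h libraries lay below those of DMSO, and its log2 change was 0.02 (95% interval -0.38 to 0.42) at 2 h, -0.34 (-0.77 to 0.09) at 4 h and -0.19 (-0.59 to 0.21) at 24 h. The neighbour at 10288150 to 10288550 held 7.12 and 11.1 CPM in DMSO, 10.2 and 11.1 CPM at 2 h, 9.82 and 11.2 CPM at 4 h, and 10.1 and 7.73 CPM at 24 h. Its treated libraries overlapped DMSO at every time, with a log2 change at 24 h of -0.02 (95% interval -0.51 to 0.47). Joined as one region, this close pair averaged 21.7 ± 0.16 CPM at 24 h and 23.5 ± 4.36 CPM in DMSO (log2 change -0.12, 95% interval -0.43 to 0.20). These intervals leave room for moderate changes in either direction, which 2 libraries a group at this depth neither showed nor excluded.

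**Figure D3:**
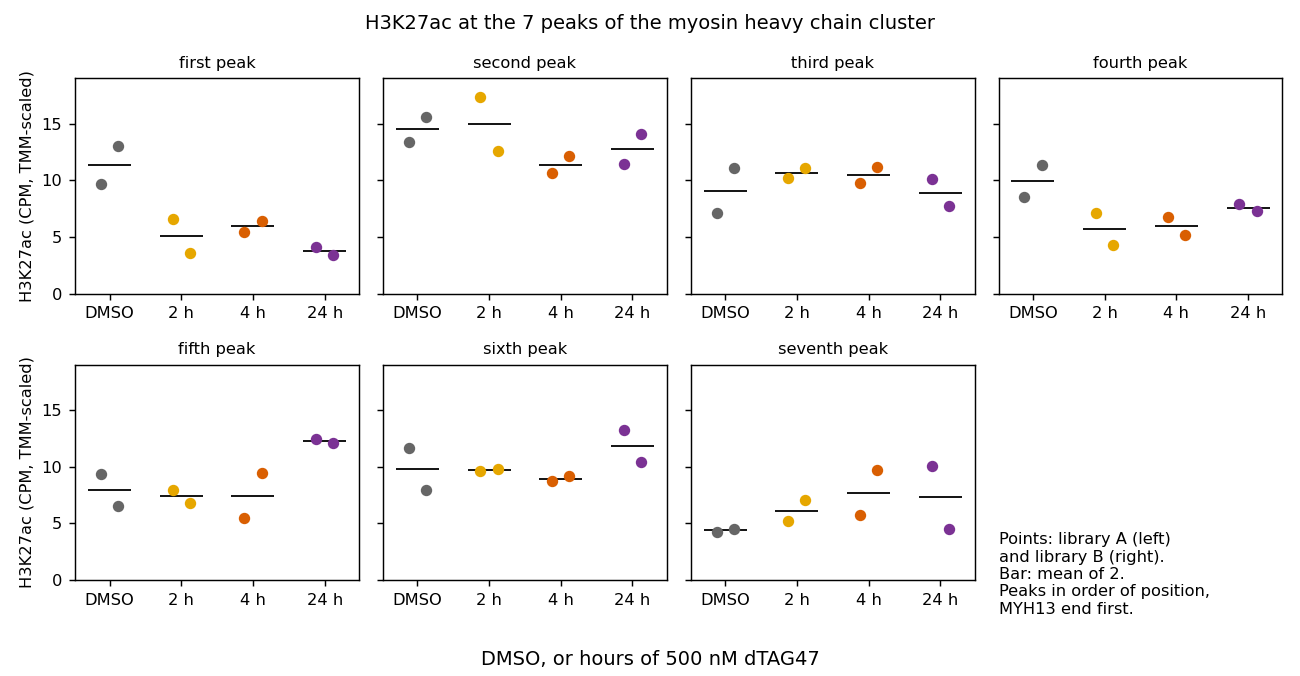
H3K27ac in CPM (vertical axis) at each of the 7 peaks in DMSO and after 2 h, 4 h and 24 h of 500 nM dTAG47 (horizontal axis), with one point per library and a bar at the mean of 2. Peaks run in order of position, MYH13 end first. In the first peak, at 10258732, all treated points lie below both DMSO points, and in the fifth, at 10527929, both 24 h points lie above the rest.

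Between 2 h and 4 h, edgeR called 0 members, and DESeq2 also called 0. No member had an unadjusted p under 0.05 there, against 6.92% of all tested peaks, and the share called among all tested peaks was 0%. Across the joined regions, the 7 peaks formed 5, of which the lone peak at 10258732 was called at 2 h, 4 h and 24 h against DMSO (edgeR adjusted p = 0.00435, 0.0359 and 8.04e-06). The shares of all regions called were 2%, 2.97% and 9.54%.

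Summed over the 7 peaks, the signal differed little between groups. The sum was 64.0 and 70.2 CPM in DMSO, 64.1 and 55.3 CPM at 2 h, 52.6 and 63.3 CPM at 4 h, and 69.5 and 59.6 CPM at 24 h. Only the 4 h libraries lay wholly below DMSO, and by little. The 63.3 CPM of 4 h library B and the 64.1 CPM of 2 h library A lay on either side of the 64.0 CPM of DMSO library A. As raw counts this was between 5.30 and 7.02 reads per 100000 in peaks, with exact Clopper-Pearson 95% intervals of 4.58 to 6.10 for the lowest library, 4 h A, and 6.30 to 7.79 for the highest, 24 h A. Such intervals cover counting error only. The 3 peaks at the MYH13 end summed to 25.8 and 25.2 CPM at 24 h, and to 30.2 and 39.8 CPM in DMSO. The 4 peaks at the MYH3 end summed to 43.8 and 34.4 CPM at 24 h, and to 33.9 and 30.4 CPM in DMSO. At 24 h both libraries thus lay below DMSO at the MYH13 end and above DMSO at the MYH3 end, and this difference between the ends was not tested. At the MYH3 end, 24 h library B barely exceeded DMSO library A, and the clear excess was in 24 h library A. There the peak at 10578236 held 10.1 CPM, against 4.55 CPM in library B. Among single peaks, 50.1% of all tested did not overlap DMSO at 24 h. Without the peak at 10258732, the pair that remained at the MYH13 end held 21.6 and 21.8 CPM at 24 h, within the 20.4 and 26.6 CPM of DMSO. At 2 h the MYH3 end, with 30 and 27.95 CPM, lay wholly below DMSO, and the MYH13 end, with 34.1 and 27.3 CPM, overlapped it. With 2 libraries in each group, a two-sided exact permutation test cannot give a p below 0.333.

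**Figure D4:**
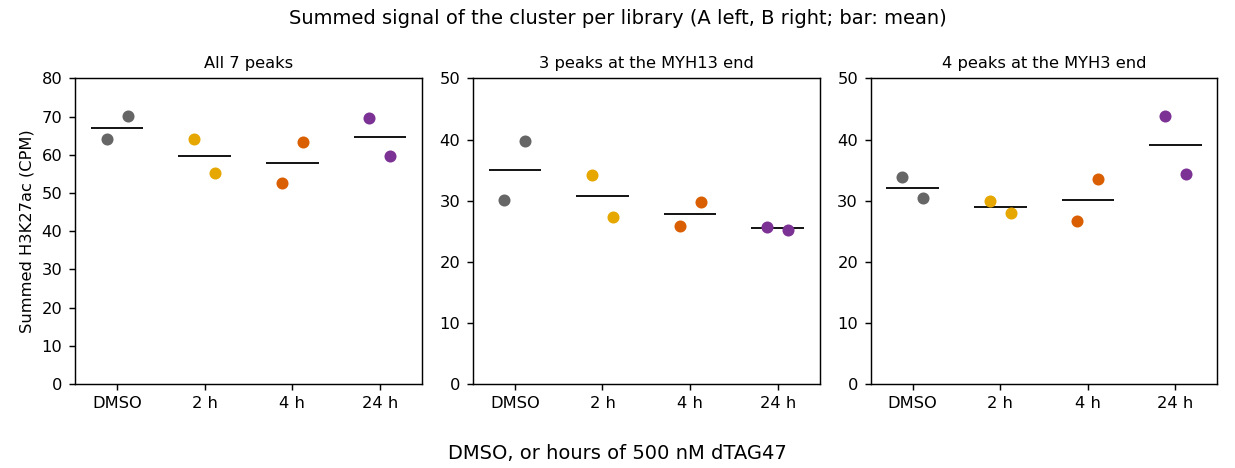
Summed H3K27ac in CPM (vertical axis) over all 7 peaks, the 3 at the MYH13 end and the 4 at the MYH3 end, in DMSO and after 2 h, 4 h and 24 h of dTAG47 (horizontal axis), one point per library and a bar at the mean of 2. The 24 h points lie below DMSO in the middle panel, at 25.8 and 25.2 CPM, and above it in the right panel, at 43.8 and 34.4 CPM. The lower of the last 2 barely exceeds DMSO library A, at 33.9 CPM.

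The pattern of the summed cluster was compared with 20896 other peaks at or above the median level, by Pearson correlation of log2 CPM over the 8 libraries. The most alike were a peak on chromosome 14 at 95982504 to 95982904 (r = 0.97), one on chromosome 6 at 36853664 to 36854064 (r = 0.97) and one on chromosome 1 at 235106884 to 235107284 (r = 0.96). In DMSO, 2 h, 4 h and 24 h their mean levels were 48.9, 45.2, 44.8 and 49.5 CPM on chromosome 14, and 18.6, 16.6, 16.7 and 17.5 CPM on chromosome 6. Each was lower at 2 h and 4 h than in DMSO, by small amounts. These values describe likeness over libraries that share one scaling, and the highest of 20896 correlations over 8 points is high by selection.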

How the data were processed

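H3K27ac ChIP-seq was analysed in 8 libraries of Rh30 cells, 2 per group; the 2 input libraries named by the labels were not analysed here. The deposited table holds raw read counts per peak window over a common peak set, per the file headers. Per the submitters' processing notes, the builds were hg19 and dm3 and the tools DESeq2, DiffBind, MACS2, Bowtie2 and Trimmomatic 0.32, with no roles or order. Duplicate removal, peak calling samples and any spike-in are not given in the sources used here, and scaling hides a change common to all peaks.

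Columns carry A and B where the labels carry numbers, so each is known by group only; 0 columns were left without a group. The 2 libraries of a group differed beyond sampling noise (chi-square per degree of freedom 1.06 to 1.21). Counts were fitted with edgeR 4.0.16 in R 4.3.3: filterByExpr (minimum count 10, minimum total 15), TMM, and one robust quasi-likelihood model of the 4 groups. P-values were Benjamini-Hochberg adjusted over 41791 peaks and called at 0.05. Standard errors were derived from the F statistic, and rest mostly on spread shared over peaks. The common dispersion, edgeR's estimate of spread between libraries beyond counting error, was 0.00108. At the low read counts of these members, the standard errors and 95% intervals therefore hold mostly counting error. For the peak at 10258732 at 24 h against DMSO, the SE was 0.29 in edgeR and 0.45 in DESeq2. The model was tested on simulated data. Alternatives were DESeq2 1.42.0, other scalings, no filter, 2-group fits and leaving out each library.

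All 7 members are named, with full values for each. The members and lists were chosen with earlier results of these data known. The peaks of like pattern are the 3 most correlated with the summed cluster. Promoters came from RefSeq and were aligned with Biopython 1.88. Whether table starts count from 0 or 1 is not stated. The genes listed for comparison outside the cluster were not tested, because no hg19 annotation was used.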

Additional observations from a re-analysis of the deposited data

Results flagged for a closer look

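The peak at 10527929 to 10528329 stood out because its change against DMSO differed between times: the value at 24 h exceeded that at 2 h by 0.741 log2 units (SE 0.23, edgeR adjusted p = 0.0463; both 24 h libraries above both 2 h libraries). The same DMSO libraries enter both changes, so this is the direct comparison of 24 h with 2 h. Leaving out any one of the 4 libraries gave 0.62 to 0.85 and adjusted p-values from 0.0881 to 0.347. Sequencing depth moved with it in part: 24 h libraries held 5001652 and 4369471 counts in peaks and 2 h libraries 3616695 and 4744596, and the part of depth in the result was not tested.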

How the results depend on the processing

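The columns carry letters and not the replicate numbers of the labels, so no pairing is known. A fit with the letter as a replicate block, chosen after seeing the data, called the same number of members and joined regions in every comparison (1 at 2 h, 4 h and 24 h against DMSO and from 2 h to 24 h, 0 otherwise). In that blocked fit the log2 change at 10258732 was -1.2, -0.93 and -1.57 at 2 h, 4 h and 24 h. Over peaks, the A minus B differences of 2 groups correlated at -0.03 to 0.05. The 2 libraries of a group differed little beyond sampling noise (chi-square per degree of freedom 1.06 to 1.21), which keeps such correlations low. They therefore cannot show whether the letters mark libraries that deviate together. DESeq2 size factors, total counts, no filter and fits of only the 2 groups compared left the number of members called as it was, 1 at 2 h, 4 h and 24 h against DMSO and from 2 h to 24 h, and 0 otherwise. The DESeq2 Wald test called 0 members at 2 h, at 4 h and from 2 h to 24 h, and 1 at 24 h. Over all 42067 peaks that test called 24 at 2 h, 82 at 4 h, 61 from 2 h to 24 h and 484 at 24 h. With so few calls over all peaks, 0 calls among 7 members say little about the cluster. From 2 h to 24 h it gave an adjusted p to the peak at 10287239 alone (0.999), so the other members could not be called there. Why DESeq2 called no member at 2 h and 4 h was not tested. Leaving out 1 library gave 0 to 1 members at 2 h, 0 at 4 h, 1 to 2 at 24 h (2 without 24 h library B) and 0 from 2 h to 24 h. For joined regions it gave 0 to 1 at 2 h, 4 h and from 2 h to 24 h, and 1 to 2 at 24 h; joining only across 5 kb, or DESeq2 size factors, changed no count of regions called. No log2 change that had an unadjusted p under 0.05 reversed under any of these settings. The cluster's share of counts per 100000 averaged 6.66 in DMSO and 5.95, 5.80 and 6.51 at 2 h, 4 h and 24 h. By construction it was larger with 50 kb added on each side (9.96, then 8.80, 9.52 and 9.67) or over the other chromosome 17 peaks (86.2, then 75.9, 74.6 and 84.4). With 15 to 67 reads per member and library, depth limits every value here.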
